A study of Mus musculus with 6 samples.

Results

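The Grainyhead-like family gene loci are 3 windows of the mouse genome around Grhl1, Grhl2 and Grhl3, and their members here are the Grhl3 binding peaks whose centre lies in a window. On the mm9 build the windows run from 25.1 to 25.45 Mb of chromosome 12 for Grhl1, from 37.05 to 37.4 Mb of chromosome 15 for Grhl2 and from 135 to 135.23 Mb of chromosome 4 for Grhl3. They were set by position and not from the measured values, although they were chosen with earlier results of these data known. Of the 34098 peaks in the 4 deposited lists, 24 were members, 11 at Grhl1, 13 at Grhl2 and 0 at Grhl3. The assay was ChIP-seq, in which DNA bound by a protein is pulled down with an antibody, here a custom one against Grhl3, and sequenced. The 4 Grhl3 libraries were 2 replicates of whole back skin from E16.5 embryos (late in gestation), 1 of adult epidermis labelled as day 4 depilation and 1 of imiquimod-treated adult epidermis. Depilation removes hair and is a physical injury, and imiquimod is a Toll-like receptor agonist that inflames skin. The labels name no strain, genotype, imiquimod dose or duration, and leave it unsaid whether separate animals gave the E16.5 replicates. The adult libraries come from dispase-separated epidermis and the embryonic ones from whole skin, so age, tissue and treatment cannot be told apart. All these tissues mix cell types, and which cells carry a peak cannot be told apart either.

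Grainyhead-like factors are transcription factors that share a DNA-binding domain and bind as dimers to a palindromic site, best known as AACCGGTT. In surface epithelia Grhl1 is known for its control of desmosomal genes, Grhl2 for genes of cell junctions and epithelial identity, and Grhl3 for formation of the skin barrier and wound closure. Because the 3 proteins recognise nearly the same site, a family member can in principle bind at its own gene and at those of its relatives. The members below show where the deposited Grhl3 peaks lay around these genes.

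The sequence before the annotated starts is shown first, since a factor that acts on its own family would be looked for there. RefSeq sequences of the 250 bases before a start were held for Grhl1, with 2 starts, and for Grhl3, with 1. They are on GRCm38.p6, a later build than that of the peaks, so the positions of these stretches cannot be set against the peak positions. The lower-coordinate Grhl1 start, at chr12:24572037-24572286 on the plus strand, and the Grhl3 start, at chr4:135573633-135573882 on the minus strand, are printed with the tetramer CCGG, the middle of the grainyhead site, in capitals.
Grhl1: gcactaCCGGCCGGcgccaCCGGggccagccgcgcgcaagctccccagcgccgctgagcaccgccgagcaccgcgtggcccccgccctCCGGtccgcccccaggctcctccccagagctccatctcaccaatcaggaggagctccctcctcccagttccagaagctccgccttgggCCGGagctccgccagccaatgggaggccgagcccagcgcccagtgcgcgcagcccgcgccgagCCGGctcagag
Grhl3: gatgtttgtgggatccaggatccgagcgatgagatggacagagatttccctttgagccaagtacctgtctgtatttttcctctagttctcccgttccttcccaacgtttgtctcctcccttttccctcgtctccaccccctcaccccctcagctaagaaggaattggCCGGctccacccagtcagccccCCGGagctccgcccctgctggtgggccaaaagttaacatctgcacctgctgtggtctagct

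The full site AACCGGTT, read on both strands, was in none of these 3 stretches, and 0.116% of all 32851 RefSeq promoter stretches of that length held it. The relaxed form AACNGGTT and the shorter form ACCGGTT, which overlap the full site, were also absent from the 3 stretches, and they occurred in 1.79% and 0.831% of all stretches. AACCGGT is ACCGGTT read on the other strand and so is the same search. The tetramer CCGG occurred 6 times in the Grhl1 stretch shown, a number that 2.38% of all stretches reached, and 2 times in the Grhl3 stretch, which 26.5% reached. The second Grhl1 start had 0. CCGG is short and rich in G and C, and the Grhl1 stretch was 75.6% G and C against 56% for Grhl3. The median over all stretches was 52.4%, and the shares above were not matched for G and C content. These matches describe the letters of the stretches and are not binding sites.

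At Grhl1, whose nearest protein-coding neighbours in RefSeq are Taf1b on the lower-coordinate side and Klf11 on the other, the Grhl3 peaks gathered into 6 sites, and the site at chr12:25256841-25257596 on mm9 was found in all 4 lists. A site here is a run of peaks from any list that overlap or touch. This site carried the best scoring member of the 2 E16.5 lists and of the depilation list. The authors' peak score, whose scale the files leave unstated, was 367.01 and 128.61 in the E16.5 replicates, 247.00 after depilation and 105.72 in the imiquimod list. Scores of different lists are not on a shared depth, so each was ranked within its own list, where 100 is the best. The percentiles were 99.8, 93.0, 99.3 and 78.0 in the same order, so the site scored well above the median of every list. It ranked 26 of 11619 peaks in E16.5 replicate 1 and 37 of 4820 in the depilation list, but 677 of 9685 in E16.5 replicate 2 and 1754 of 7974 in the imiquimod list.

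The peaks of the 4 lists lay on the same place. They shared 387 bp, from 25257033 to 25257419, and their centres lay within 103 bp of each other. Peak widths were 730, 558, 401 and 579 bp, at width percentiles of 80.2, 91.7, 93.8 and 96.6 within their lists. Of the 24995 sites of the whole series, 751 were found in all 4 lists. Counted over E16.5 replicate 1 peaks, 1 of 9 members was overlapped in all the other lists, against 6.45% of that list. By mean percentile over the lists (92.5) the Grhl1 site ranked 43 among these 751, whose median was 75.1. This mean mixes ranks from lists of different size, and the imiquimod score was not checked against that of the other lists. Its percentile was above the median of these sites in both E16.5 lists and after depilation, where the medians were 87.5, 77.4 and 77.0, and below it after imiquimod, where the median was 82.1.

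After imiquimod the site had many tags in a wide peak and a low fold enrichment. The authors counted 99 tags in it, and 99.4% of this list's peaks held that many or fewer, with a median of 29. The peak was also wide, 579 bp against a list median of 277 bp, and per kb of peak it held 171 tags against a list median of 109.2. The fold enrichment over the caller's background was 4.56 at a false discovery rate (FDR) of 3.15%, against list medians of 6.65 and 5.23%. Only 3.12% of the list's peaks had a fold as low or lower. Among the 812 imiquimod peaks at sites found in all 4 lists, 6.40% did, and the median fold there was 6.44. Tags and fold are given for the imiquimod list alone, so the site's fold in the other libraries is unknown.

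**Figure D1:**
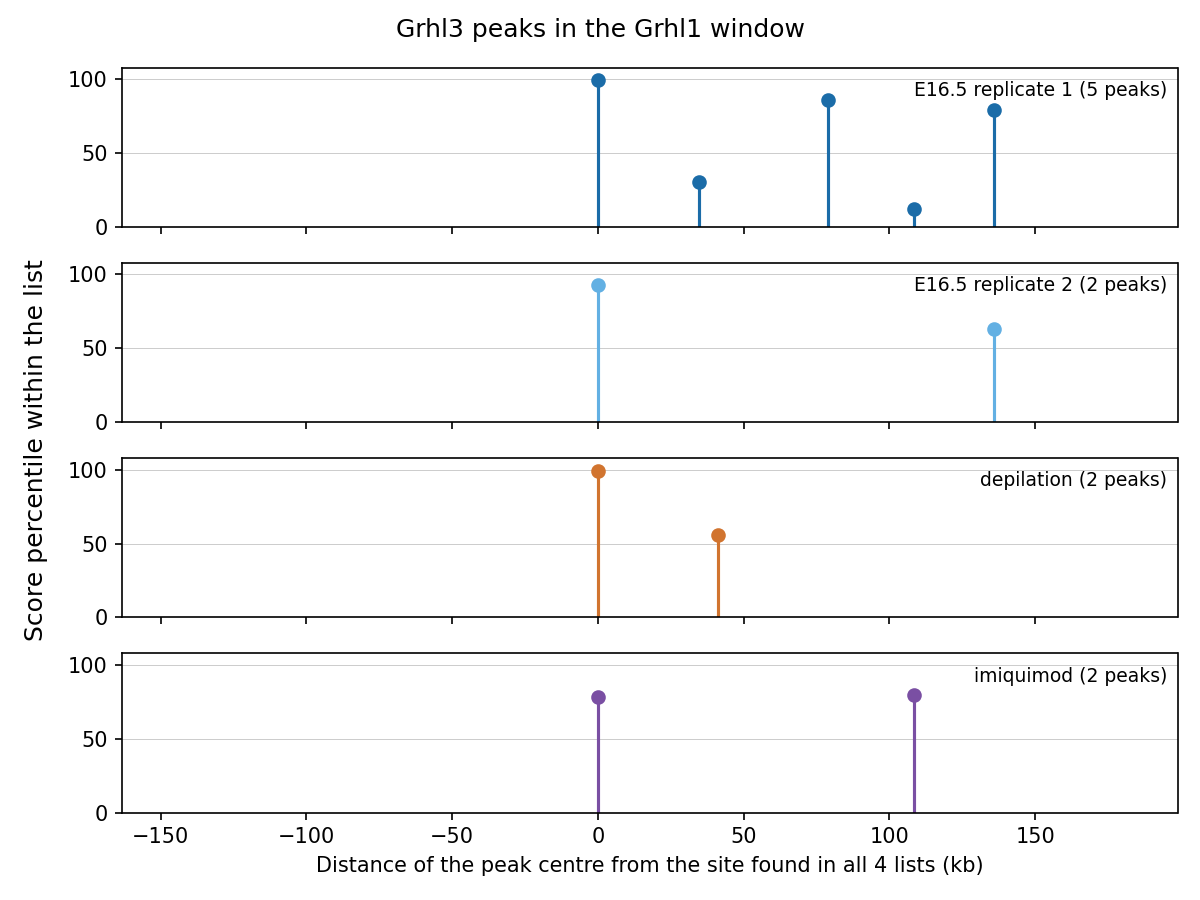
Score percentile of each Grhl3 peak within its list (vertical axis) against the distance of its centre, in kb, from the site found in all 4 lists (horizontal axis), 1 panel per list over the Grhl1 window. All 4 lists have a peak at 0, from percentile 78.0 to 99.8, and the other 7 peaks lie on the right of it.

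The other 5 Grhl1 sites lay on the higher-coordinate side, from 34.8 to 136 kb away, and each was in 1 or 2 lists. The farthest, at chr12:25392842-25393451, was found in both E16.5 replicates, with scores of 112.26 and 71.55 (percentiles 79.1 and 63.1), and in neither adult list. The nearest depilation peak was 94.4 kb away and the nearest imiquimod peak 26.9 kb. Over the whole list, 3771 replicate 1 peaks were found in replicate 2, and only 1432 of these were found after depilation. Such absence was therefore common for the depilation list, and absence from both adult lists together was not counted. The site at chr12:25365395-25365930 joined E16.5 replicate 1 and imiquimod, and its rank differed between them. It scored 52.73 in the embryonic list, percentile 12.3, and 108.99 after imiquimod, percentile 79.4, with 40 tags, a fold of 6.06 and an FDR of 3.17%. Of the 2125 replicate 1 peaks overlapped by an imiquimod peak, 35.8% were, like this one, missing from replicate 2.

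The remaining Grhl1 sites were found in 1 list each. The E16.5 replicate 1 peak at chr12:25335687-25336626 was 940 bp wide and scored 135.12, percentile 86.2, the highest of any member found in a single list. Of the 1601 replicate 1 peaks that scored as high, 10.9% were overlapped in no other list. The replicate 1 peak at chr12:25291848-25292126 scored 58.40 (percentile 30.7), and the depilation peak at chr12:25298227-25298442 scored 62.94 (percentile 55.5). These last 2 peaks were 6.10 kb apart and did not overlap. Over the whole lists, depilation peaks overlapped 19.1% of replicate 1 peaks, and replicate 1 peaks overlapped 50.6% of depilation peaks. At least 1 other list overlapped 42.7% of replicate 1 peaks and 55.6% of depilation peaks, so lone peaks were common in both. Without E16.5 replicate 1, 1 Grhl1 site was in 2 or more lists in place of 3, and that site was the one found in all lists.

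At Grhl2, 8 sites were found. Its RefSeq neighbours are Zfp706 and LOC115488529 on the lower-coordinate side and Ncald on the other. Of the 3 sites in 2 or more lists, 2 formed a close pair. The sites at chr15:37162655-37163235 and chr15:37163558-37164353 were 322 bp apart, and each was found in the E16.5 lists and the depilation list. Neither was found after imiquimod, where the nearest peak lay 105.5 kb away. The peaks of the first site shared 307 bp and those of the second 190 bp. At the first site the score was 155.06 in E16.5 replicate 1, 102.30 in replicate 2 and 64.08 in the depilation list, at percentiles 90.7, 84.9 and 58.4. The second scored 59.75, 105.16 and 85.14, at percentiles 35.1, 86.1 and 82.2.

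Which of the pair scored higher depended on the library. The score of the first site divided by that of the second was 2.60 and 0.973 in the E16.5 replicates and 0.753 in the depilation list. The E16.5 replicates differed from each other by more than replicate 2 differed from depilation, so the order of the pair could not be tied to a condition. With 1 library for each adult condition, the missing imiquimod peak has no replicate check. Of the 1432 E16.5 replicate 1 peaks found in replicate 2 and after depilation, 52.4% were overlapped by an imiquimod peak and 47.6% were not. The count of 1432 is 12.3% of that list. Of 1142 pairs of neighbouring sites within 1000 bp, 11 had both sites in each E16.5 list and in the depilation list. In 6 of the 11 neither site was found after imiquimod. The Grhl2 pair is itself 1 of the 11 and 1 of the 6. The distance of 1000 bp was chosen after these values were seen, so these counts do not measure how unusual the pair is.

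**Figure D2:**
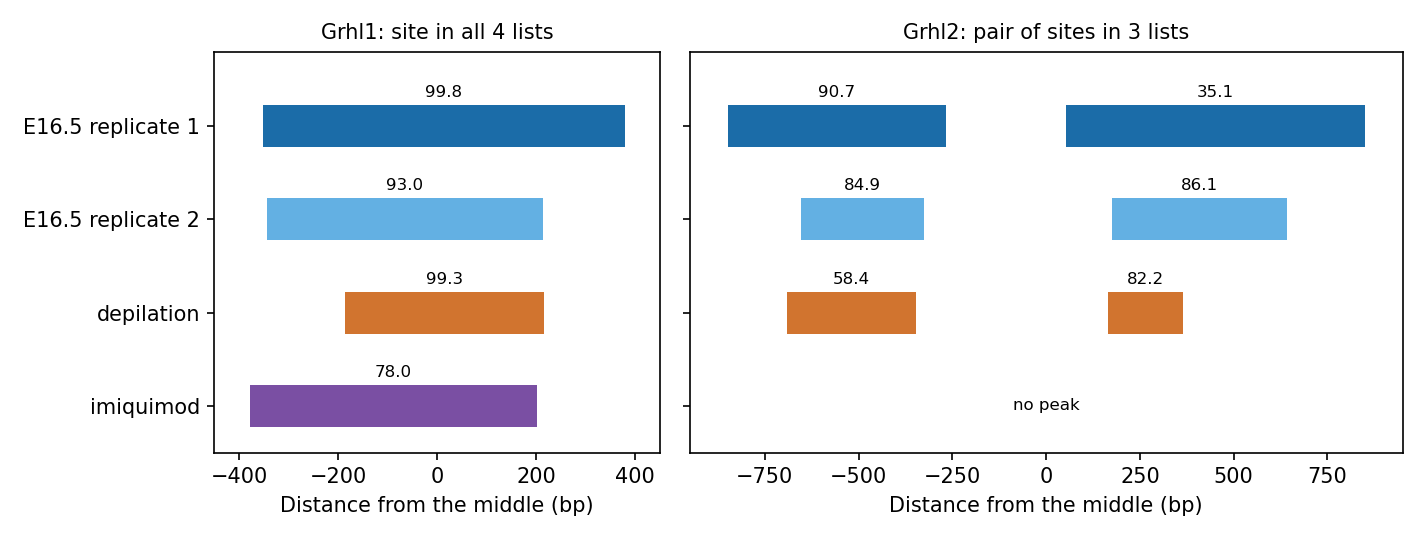
Extent of each list's peak, as bars against the distance in bp from the middle of the Grhl1 site found in all 4 lists (left) and of the Grhl2 pair found in 3 lists (right), with the score percentile within the list above each bar. The Grhl1 peaks share 387 bp over all 4 lists, and the imiquimod row of the Grhl2 pair is empty.

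A further Grhl2 site, at chr15:37065115-37065511 and 98.2 kb from the middle of the pair on the lower-coordinate side, was found in both E16.5 replicates and in neither adult list. It scored 93.51 and 66.83, at percentiles 70.4 and 56.0. Of all 3771 replicate 1 peaks found in replicate 2, 1432 were found after depilation, so absence from the depilation list was common. Absence from both adult lists together was not counted. The nearest imiquimod peak lay on the side away from the pair, at chr15:37056820-37057117, with a score of 69.35 (percentile 49.6), 32 tags, a fold of 5.14 and an FDR of 4.78%. It was the only imiquimod member at Grhl2 and was overlapped in no other list. That was usual, since 30.2% of all imiquimod peaks were overlapped in at least 1 other list. The other 4 sites were held by the E16.5 lists singly, and all of them scored below the median of their list. At least 1 other list overlapped 42.7% of all replicate 1 peaks and 44.2% of all replicate 2 peaks, so lone peaks were common. E16.5 replicate 2 had peaks at chr15:37050273-37050565, chr15:37176473-37176635 and chr15:37230106-37230309, with percentiles of 34.8, 37.6 and 10.9. E16.5 replicate 1 had a peak at chr15:37184470-37184786, with percentile 7.24. Between the last member, which ends at 37230309, and the window's end at 37.4 Mb no list had a peak. Without E16.5 replicate 2, Grhl2 had 5 sites in place of 8.

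**Figure D3:**
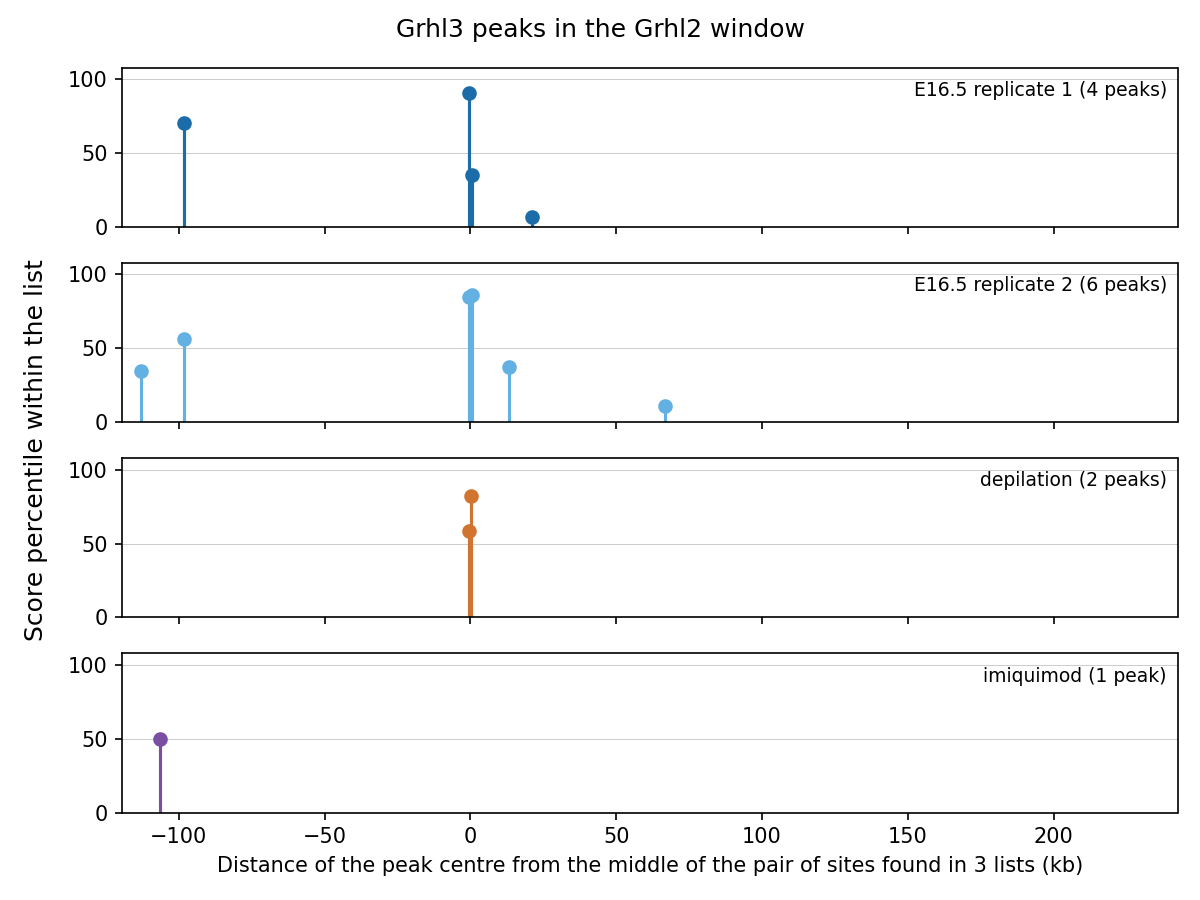
Score percentile of each Grhl3 peak within its list (vertical axis) against the distance of its centre, in kb, from the middle of the pair of sites found in 3 lists (horizontal axis), 1 panel per list over the Grhl2 window. Both E16.5 lists and the depilation list have a pair of peaks at 0, and the 1 imiquimod peak lies near -107 kb.

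At Grhl3 itself, which lies between the protein-coding genes Stpg1 and Ifnlr1 in RefSeq, no list had a peak in the window of 230 kb. The window was part of a stretch of 422 kb, from 134989806 to 135411770 on chromosome 4, that held no peak of any list. Of 10452 autosomal tiles of 230 kb, 84.8% held at least 1 peak of any list and 15.2% held none, so 1586 tiles were as empty as this window. By list, the share of empty tiles was 43.1% in E16.5 replicate 1, 48.6% in replicate 2, 67.1% in the depilation list and 49.8% in the imiquimod list. Of the 24633 autosomal stretches between neighbouring sites, 540 were as long as this (2.19%), and together these 540 made up 14.4% of the span between sites. The median length over all stretches was 59.0 kb. A list holds only peaks above the caller's threshold, so weaker binding in the window was not measured here.

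Sites flanked the Grhl3 window on both sides. The nearest, at chr4:134989418-134989805, lay 10.2 kb outside its lower edge and was found in both E16.5 replicates, with scores of 92.18 and 61.74 (percentiles 69.3 and 45.4), and in neither adult list. On the other side, the site at chr4:135411771-135412577 lay 181.8 kb outside and was found in all 4 lists. Its scores were 121.43 and 54.54 in the E16.5 lists, 88.53 in the depilation list and 59.98 in the imiquimod list, at percentiles 82.2, 20.3, 84.2 and 30.8. Absence from the depilation list was common for replicate 1 peaks found in replicate 2, as given above. Neither site is a member. Whether they belong to Grhl3 or to a neighbouring gene was not tested, since gene positions on mm9 were not used here. With the window widened by 50 kb on each side, 3 peaks fell in it, 2 of E16.5 replicate 1 and 1 of replicate 2.

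At Grhl2 several members lay near the window's lower edge, so their membership depends on where that edge was set. Among them were the only imiquimod member, at chr15:37056820-37057117, and the E16.5 site at chr15:37065115-37065511. The member nearest to an edge was the E16.5 replicate 2 peak at chr15:37050273-37050565, just inside the Grhl2 window, and just outside lay a depilation peak at chr15:37038706-37038886 with a score of 54.49 (percentile 25.5). At Grhl1 the nearest peak outside was that of E16.5 replicate 2 at chr12:25497695-25497855, with a score of 50.97 (percentile 5.26). On the lower-coordinate side, the Grhl1 site found in all lists was the first after a long stretch with few peaks. In E16.5 replicate 1 the preceding peak ended at 21441961, in the depilation list at 17311291 and in the imiquimod list at 21117895, whereas E16.5 replicate 2 had a peak that ended at 24780581. Gaps this long within a list were not counted over the genome, and why this stretch held few peaks was not tested.

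Peaks were denser in the Grhl1 and Grhl2 windows than over the autosomes in most lists. E16.5 replicate 1 had 14.3 peaks per Mb at Grhl1 and 11.4 at Grhl2 against 4.77 over the autosomes, and replicate 2 had 5.71 and 17.1 against 3.96. Depilation had 5.71 at both against 1.99. Imiquimod had 5.71 at Grhl1 and 2.86 at Grhl2, against 3.32, so Grhl2 was below the autosomal density in this list alone. Of 6865 autosomal tiles of 350 kb, 93.1% held at least 1 peak of any list, 7.18% held at least the 5 replicate 1 peaks of Grhl1 and 13.3% at least the 4 of Grhl2. For replicate 2, 35.8% held at least the 2 peaks of Grhl1 and 2.20% at least the 6 of Grhl2. For imiquimod, 30.9% held at least the 2 peaks of Grhl1 and 64.6% at least the 1 of Grhl2. At least 2 depilation peaks, the number at each of these loci, were held by 15.6% of tiles. At least 1 site in 3 or more lists was held by 25.5% of tiles, and at least 2 by 6.98%. The tiles were not matched for genes or open chromatin, so these shares describe the genome as a whole.

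Recurrence of the members was read against that of all peaks. Of the 9 E16.5 replicate 1 members, 5 were overlapped by a replicate 2 peak (55.6%), against 32.5% of the whole list. In the other direction 5 of 8 replicate 2 members were (62.5%), against 41.7%. The members are not independent of each other. In each direction 2 of the 5 were the Grhl2 pair, which lay 322 bp apart and merged into 1 site across gaps of up to 500 bp. Depilation peaks overlapped 3 of the replicate 1 members, against 19.1% of that list, and 3 of the replicate 2 members, against 16.2%. Imiquimod peaks overlapped 2 of the replicate 1 members, against 18.3%, and 1 of the replicate 2 members, against 15.6%. The 5 sites that recurred between the replicates were the Grhl1 site found in all lists, the far Grhl1 site, the Grhl2 pair and the Grhl2 site 98.2 kb from it. Of the 4 depilation members, 3 were overlapped in E16.5 replicate 1, against 50.6% of that list, and the same number in replicate 2, against 34.1%. In each of these depilation counts, 2 of the 3 were again the Grhl2 pair. Of the 3 imiquimod members, 2 were overlapped in E16.5 replicate 1, against 27.9%, and 1 in replicate 2, against 18.6%. The adult lists met in 1 place, the Grhl1 site found in all lists, which was 1 of 4 depilation members against 26.2% of that list and 1 of 3 imiquimod members against 14.9%. Counts this small do not set the loci apart from the rest of the lists.

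Merged over the lists, 6 of the 14 sites were in 2 or more lists, against 20.9% of all sites in the series. Grhl1 and Grhl2 had 3 each. The 16 member peaks at these 6 sites had a median percentile of 79.2, and the 8 members found in a single list had 36.2. Both medians mix ranks from different lists. All peaks of the lists differed the same way. The median percentile was 74.1 for E16.5 replicate 1 peaks overlapped in another list and 32.8 for the others, and the values were 66.9 and 39.4 in replicate 2, 66.9 and 33.1 in the depilation list, and 75.5 and 39.5 in the imiquimod list. The members overlapped in range. Recurring members went down to percentiles 12.3 and 35.1, both in replicate 1, and lone members went up to 86.2 in replicate 1 and 55.5 in the depilation list. Over all members of a list the median percentile was 70.4 in E16.5 replicate 1, 59.5 in replicate 2, 70.3 in the depilation list and 78.0 in the imiquimod list, with 9, 8, 4 and 3 members.

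**Figure D4:**
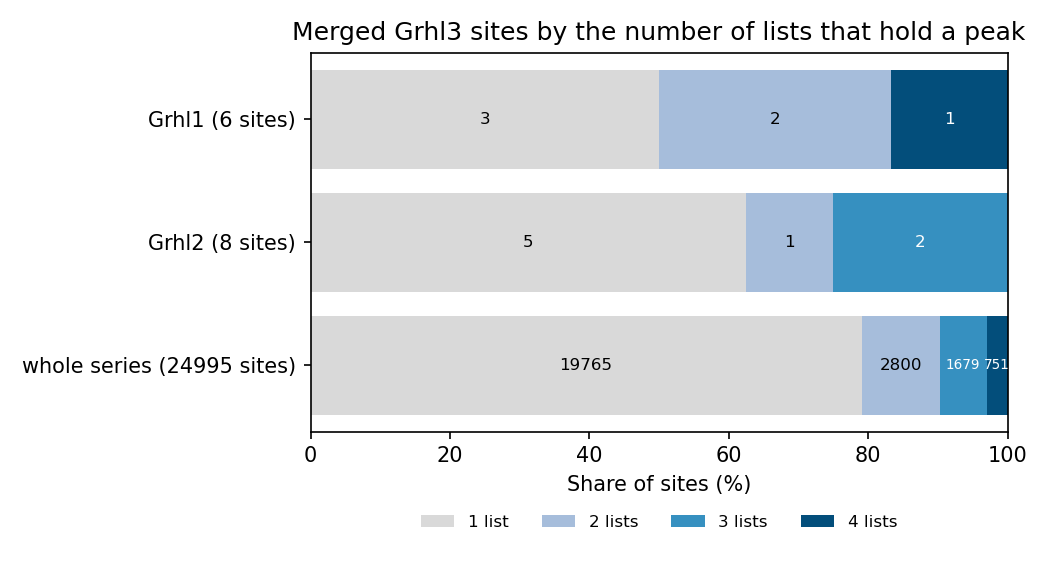
Share of merged sites (horizontal axis, percent) by the number of lists that hold a peak, for the Grhl1 window, the Grhl2 window and the whole series, with the number of sites in each part of a bar. Sites in a single list make up 50% at Grhl1, 62.5% at Grhl2 and 79.1% in the whole series, and the Grhl3 window has no site.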

How the data were processed

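Per the labels, 4 Grhl3 ChIP-seq libraries and 2 inputs were sequenced as single-end reads. Files of the inputs were not analysed here. Bowtie 0.12.7, bedtools 2.11.2 and the build mm9 are named in the submitters' processing notes. How peaks were called, and whether against the inputs, is not stated there. Each list belongs to 1 library. The lists as deposited give a score per peak. Per the file headers, the imiquimod list adds the authors' tag count, a fold enrichment (a ratio) and an FDR in percent. Its score header is lost, and whether its score is that of the other lists was not checked. Library depth is unknown for every list.

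BED starts were raised by 1 to give 1-based positions. An overlap of 1 bp or more made peaks of different lists shared, and sites merged peaks that overlapped or touched. Percentiles are score ranks within a list, with ties averaged. Tiles of the window's length were laid end to end over the autosomes from the first peak of each chromosome. No test was run, since each adult condition has 1 library and the members are few. Every member was to be named, and neighbouring genes only as RefSeq (GRCm38.p6) orders them. A planned count over other grainyhead pathway genes needs gene positions on mm9 and was not run, and peak sequences were not used here for the same reason. The members and lists were chosen with earlier results of these data known. The CCGG search was added after the data were seen. Overlap and merging were tested on simulated data, and overlap counts were checked against bedtools 2.31.1. The software was Python 3.11.15 with pandas 2.3.3, numpy 2.4.6, scipy 1.17.1 and matplotlib 3.10.9.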

Additional observations from a re-analysis of the deposited data

How the results depend on the processing

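Of 126 values recomputed under alternatives, 110 stayed within 1.5 times the reported count or 5 percentile points. These include values of the empty Grhl3 window, which could only stay at 0 when peaks or lists were dropped. A fall from 3 to 2 also counted as within 1.5 times, so the 110 do not measure how stable the results were. When only the 50% of peaks with the best scores were kept, Grhl2 had 7 member peaks, 3 sites and 1 site in 3 or more lists. Merging across gaps of up to 500 bp joined the Grhl2 pair, which left 1 such site. Grhl2 sites in 3 or more lists numbered 0 without either E16.5 replicate and 0 with the depilation list left out, since the pair is in these 3 lists. Leaving out an E16.5 replicate gave 5 to 7 Grhl2 sites, the lower number without replicate 2, and 1 to 2 Grhl1 sites in 2 or more lists, the lower number without replicate 1. With windows widened by 50 kb on each side the Grhl3 window held 3 peaks. The Grhl1 site in all 4 lists was in at least 3 lists under each alternative run. Leaving out the depilation or the imiquimod list was chosen after seeing the data. No paired analysis was possible because only E16.5 has replicates and no result comes from a test. Library depth is unknown, so a missing peak may lie under a list's threshold.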
